A study of Mus musculus with 9 samples.

Results

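The transcripts of 7 genes that act in active DNA demethylation were followed in mouse LSK cells, Lin- Sca1+ cKit+ bone marrow cells, among them stem cells and multipotent progenitors. The genes are the 5-methylcytosine dioxygenases Tet1, Tet2 and Tet3, the DNA glycosylases Tdg and Mbd4, and the isocitrate dehydrogenases Idh1 and Idh2. They were chosen by name and not by a threshold on values, and each matched 1 of 39179 gene rows in the count table. All 7 were among the 18576 genes that passed the filter on low counts, with at least 1036 counts in every library.

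The study has 9 libraries of C57BL/6 animals aged 6 months. All animals, controls included, had received 5 injections of poly(I:C), which induces the Mx1 promoter that drives Cre. The wild-type group carries Dnmt3a+/+ with Mx1-Cre (wt_Mx+, 3 libraries). The mutant group carries Dnmt3a+/m with Mx1-Cre (cKI_Mx+, 4 libraries), where recombination switches on the mutant allele at its own locus; the series title names R882 of DNMT3A. The Cre-negative group carries the conditional allele without Cre (cKI_Cre-, 2 libraries), and the design text gives its genotype as Dnmt3a+/-. Against wild type, it thus differs both by the allele and by the lack of Cre. Values listed per library follow the order of the titles, which is wt_Mx_pos_820, wt_Mx_pos_823 and wt_Mx_pos_825, then cKI_Mx_pos_824, cKI_Mx_pos_827, cKI_Mx_pos_829 and cKI_Mx_pos_830, then cKI_Cre_neg_780 and cKI_Cre_neg_819. The labels do not say whether each library is 1 animal or a pool, so the p-values measure the spread between these libraries.

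TET enzymes use iron, oxygen and 2-oxoglutarate to oxidise 5-methylcytosine stepwise. Tdg cuts out the more oxidised products, base excision repair then restores an unmodified cytosine, and Mbd4 removes thymine left by deamination of 5-methylcytosine. Idh1 in the cytosol and Idh2 in mitochondria produce 2-oxoglutarate. In human blood, TET2, IDH1 and IDH2 are, like DNMT3A, recurrent targets of mutation in clonal haematopoiesis and acute myeloid leukaemia, and mutant IDH makes a metabolite that inhibits TET enzymes.

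Much of the Tdg transcript is shared with other genes, which limits how its reads can be counted. Of the 50-base stretches of annotated Tdg transcripts, 41.2% also occur in transcripts of other genes, mainly in the processed pseudogene Tdg-ps on chromosome 15. Over the 1191 coding bases of Tdg, the pseudogene is 98.8% identical. The 2 pairs of 90-base windows below, each inside 1 coding exon of Tdg and read from the GENCODE M21 transcripts of GRCm38, show the range. The first pair is the first of the windows with fewest differences (0), where a read lying wholly within it could come from either gene. The second pair is the window with the most differences (4), and capitals mark the bases that differ. Both genes are on the plus strand.
Tdg, chr10:82641316-82641405: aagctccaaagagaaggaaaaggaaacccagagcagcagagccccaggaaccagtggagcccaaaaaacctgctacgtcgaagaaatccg
Tdg-ps, chr15:82516611-82516700: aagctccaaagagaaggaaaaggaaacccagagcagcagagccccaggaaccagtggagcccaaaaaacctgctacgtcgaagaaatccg
Tdg, chr10:82647953-82648042: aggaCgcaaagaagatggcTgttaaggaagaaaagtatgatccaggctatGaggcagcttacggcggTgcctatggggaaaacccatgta
Tdg-ps, chr15:82517409-82517498: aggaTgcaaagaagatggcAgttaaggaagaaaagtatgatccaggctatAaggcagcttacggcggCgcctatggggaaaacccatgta
The table counted 4 to 11 reads per library on Tdg-ps against 1036 to 1619 on Tdg, and kept reads that did not align uniquely in a row of their own. How many reads of Tdg were left out in this way is not known. Mbd4 shared 4.95% of its 50-base stretches with other genes, Tet1 0.462%, Tet3 0.036% and Tet2 0.012%, and Idh1 and Idh2 shared 0.

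Gene totals ranged from 47792306 to 58405879 counts per library, and the 7 genes received between 1036 and 17590 counts each. Kit, which encodes cKit, stood between 369 and 539 CPM (counts of a gene scaled to a common library size, with TMM scaling between libraries) and Ly6a, which encodes Sca1, between 27.2 and 44.2 CPM. wt_Mx_pos_820 stood apart by reads outside annotated exons, which made up 23.1% of its counted reads against 13.6% to 19.4% in the other 8. cKI_Cre_neg_819 stood apart by 14 erythroid genes, summed to 3964 CPM against 872 to 1124 CPM elsewhere; none of these genes was at 0 in all libraries. Of the 3, 4 and 2 libraries of wild type, mutant and Cre-negative, 2, 2 and 1 held Y-linked transcripts, so each group mixed libraries with and without them. In cKI_Mx_pos_829 the 5 sex-linked check genes, Xist and Y-linked genes together, summed to 2.15 CPM, against 426 to 2717 CPM in the other 8, so that library carried neither kind at the level of the others.

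Per length, Idh2 and Idh1 stood far above the other 5 genes. Idh2 stood highest, at 109 ± 16.7 CPM per kilobase of exon (SD over 9 libraries), followed by Idh1 at 25.1 ± 2.57 and Mbd4 at 9.85 ± 0.939. The libraries of these 3 genes did not overlap with each other, though the lowest of Mbd4 (8.52) lay below the highest of Tet1 (9.28). Below them came Tet1 at 6.32 ± 1.20, Tdg at 5.04 ± 0.638, Tet2 at 4.74 ± 0.643 and Tet3 at 4.67 ± 0.594 CPM per kilobase, and the ranges of neighbours in this order overlapped over the 9 libraries. Within each of the 9 libraries Tet1 stood above Tet2 and Tet3. The order depended on the length used: by the longest annotated transcript, Tet2 led these 4 with 8.70 CPM per kilobase, before Tdg (7.74), Tet3 (7.15) and Tet1 (6.80), and Tet2 stood above Tet1 in each of the 9 libraries. Among all genes tested, the level per kilobase of Idh2 lay above 98.4% of genes, that of Idh1 above 88.4% and that of Tet3, the lowest of the 7, above 53.6%.

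**Figure D1:**
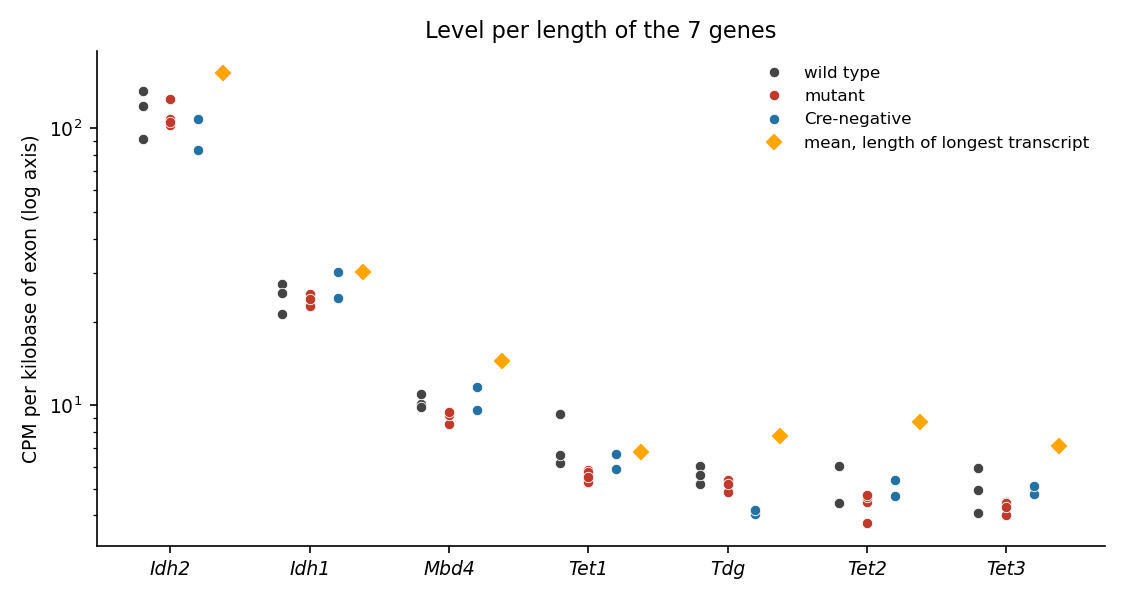
Level of each gene in CPM per kilobase of exon on a log axis; points are the 9 libraries, coloured by group, and diamonds are means when the longest transcript sets the length. Idh2 and Idh1 stand apart from the rest, and Tet1, Tdg, Tet2 and Tet3 overlap between 3.75 and 9.28 CPM per kilobase of exon.

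No member was called between mutant and wild-type cells by edgeR's quasi-likelihood test, in which 0 of 18576 genes (0%) passed an adjusted p of 0.05. With no gene called at all, the test cannot show that a level was the same in both groups. Each of the 7 had a lower fitted mean in the mutant, where 54.3% of all genes tested did. Their log2 fold changes ran from -0.40 to -0.02 with a median of -0.17, against -0.02 over all genes. One of them, Tet1, had an unadjusted p under 0.05, as did 3.17% of all genes. The libraries of the 2 groups did not overlap for Tet1 and Mbd4, a separation that 8.32% of all genes showed. In sorted bulk cells, fewer cells of a type and less RNA per cell cannot be told apart.

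Tet1 (ENSMUSG00000047146, chromosome 10, 62804570 to 62908996 of GRCm38, minus strand) stood at 143, 95.4 and 102 CPM in the wild-type libraries. It stood at 81.5, 89.96, 88.7 and 85.1 CPM in the mutant libraries, and at 103 and 90.6 CPM in the Cre-negative libraries. Every mutant library was thus below every wild-type library, with wt_Mx_pos_820 far above the rest and cKI_Cre_neg_819 close to the mutant range. The mutant minus wild type log2 fold change was -0.40 (SE 0.14, 95% interval -0.70 to -0.09), with an unadjusted p of 0.0156 and an adjusted p of 0.998 in edgeR. Without wt_Mx_pos_820 it was -0.17 (SE 0.10), with an unadjusted p of 0.122 in edgeR. A covariate for reads outside annotated exons, added after the data were seen, gave -0.33 (SE 0.10). Tet1 in Cre-negative libraries differed from wild type by -0.23 (95% interval -0.60 to 0.14) and the mutant differed from Cre-negative by -0.17 (-0.51 to 0.18); the edgeR adjusted p was 0.99977 and 0.953. The first was -0.04 without wt_Mx_pos_820, -0.37 without wt_Mx_pos_823 and -0.36 without cKI_Cre_neg_780, and the second was -0.02 without cKI_Cre_neg_780 and -0.10 without cKI_Mx_pos_824.

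Tet2 (ENSMUSG00000040943, chromosome 3, 133463679 to 133545139, minus strand), the family member most often mutated in human blood, was measured at 102, 75.0 and 75.0 CPM in the wild-type libraries. The mutant libraries gave 63.2, 75.5, 78.5 and 79.8 CPM, and the Cre-negative libraries gave 79.5 and 90.7 CPM. The groups overlapped: 3 of 4 mutant libraries lay above the 2 lower wild-type libraries. The log2 difference was -0.18 for mutant minus wild type (95% interval -0.48 to 0.12) and 0.02 for Cre-negative minus wild type (-0.34 to 0.38). Without wt_Mx_pos_820 the first became 0.01, and its direction thus rested on that library.

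Tet3 (ENSMUSG00000034832, chromosome 6, 83362373 to 83459084, minus strand) stood at 98.6, 68.0 and 82.4 CPM in the wild-type libraries. The mutant libraries held 74.9, 67.0, 73.9 and 71.8 CPM. Cre-negative values were 79.5 and 85.6 CPM, both above all 4 mutant libraries and inside the wild-type range. Tet3 differed by -0.21 on the log2 scale in mutant minus wild type (95% interval -0.48 to 0.07). It was -0.04 without wt_Mx_pos_820 and -0.33 without wt_Mx_pos_823. In mutant minus Cre-negative the difference was -0.20 (-0.51 to 0.11, edgeR adjusted p = 0.948), with -0.11 without cKI_Cre_neg_819 and -0.13 without cKI_Mx_pos_827.

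**Figure D2:**
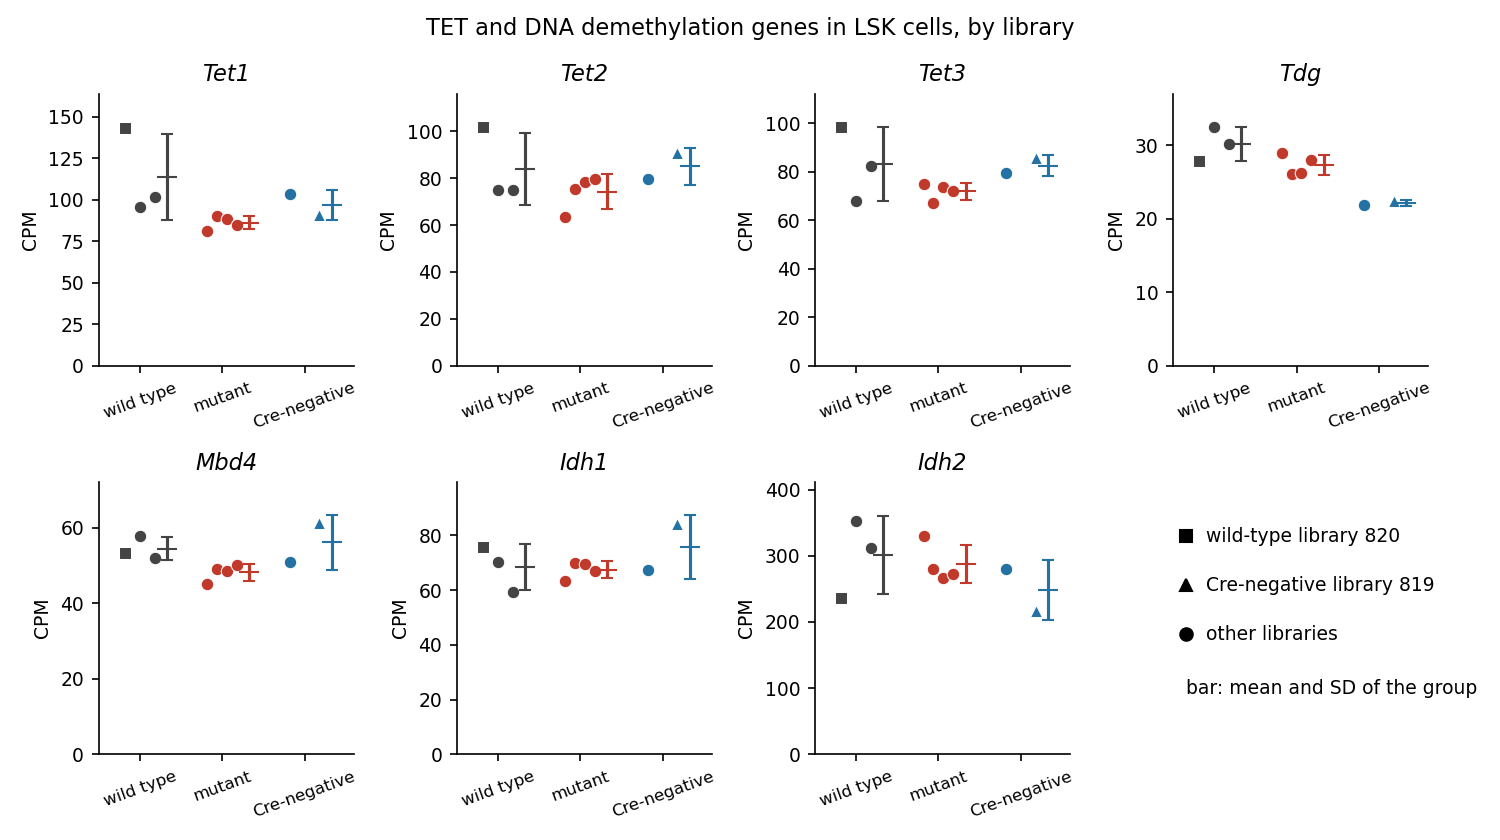
CPM of each of the 7 genes, 1 point per library, for 3 wild-type, 4 mutant and 2 Cre-negative libraries; bars give the group mean and SD. wt_Mx_pos_820 (square) is the highest of all 9 for Tet1, Tet2 and Tet3, and both Cre-negative libraries lie below the other 7 for Tdg.

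The makeup of the TET trio was described by shares of its summed level per kilobase of exon, with no test. Tet1 made up 42.3% ± 1.26 (SD, n = 3) of the trio in wild type, 39.1% ± 1.18 (SD, n = 4) in the mutant and 38.6% ± 3.91 (SD, n = 2) in Cre-negative libraries. Wild-type shares of Tet1, at 43.7%, 42.0% and 41.3%, were above all mutant shares, which ran from 37.9% to 40.7%. By level, 8.32% of all genes separated these groups, and no such figure was computed for shares. The shares of Tet1 use the same counts as its level. Unlike the level of Tet1, its share in wt_Mx_pos_820 was close to that of the other wild-type libraries. Tet2 made up 28.8% ± 1.26 and 30.7% ± 2.07 in wild type and mutant, and Tet3 28.8% ± 1.78 and 30.2% ± 2.17, with overlap. By the longest transcript, Tet1 averaged 29.9% over the 9 libraries in place of 40.1%.

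No member was called between Cre-negative and wild-type cells, or between mutant and Cre-negative cells, in the edgeR test, and 0% of all genes were called in either comparison. In Cre-negative minus wild type, 4 of the 7 log2 fold changes were negative, as were 46.8% over all genes. The libraries of these groups did not overlap for 1 member, Tdg, a separation that 11.4% of genes showed. In mutant minus Cre-negative, 5 of 7 were negative, as were 55.8% over all genes. The libraries did not overlap for 4 members, with Tet1, Tet3 and Mbd4 lower and Tdg higher in the mutant, against 12.4% of all genes. Both comparisons share the Cre-negative libraries.

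Among the glycosylases, Tdg showed the lowest unadjusted p of any member, for Cre-negative minus wild type. Tdg (ENSMUSG00000034674, chromosome 10, 82629828 to 82650799, plus strand) stood at 27.9, 32.5 and 30.1 CPM in the wild-type libraries. The mutant libraries held 28.9, 26.1, 26.2 and 27.9 CPM. The Cre-negative libraries held 21.8 and 22.4 CPM, the lowest pair of the 9 and close to each other. The Cre-negative minus wild type log2 fold change was -0.45 (SE 0.12, 95% interval -0.71 to -0.18), with an unadjusted p of 0.0038 and an adjusted p of 0.787 in edgeR; 5.23% of all genes had an unadjusted p under 0.05 there. Against Cre-negative, Tdg in the mutant differed by 0.30 (SE 0.11, interval 0.05 to 0.55, edgeR adjusted p = 0.877), where 5.26% of genes had an unadjusted p under 0.05. Mutant minus wild type was -0.15 (-0.36 to 0.07).

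The Cre-negative difference of Tdg had a similar size without any single library. It was -0.46 without cKI_Cre_neg_780, -0.48 without cKI_Cre_neg_819, -0.51 without wt_Mx_pos_820 and -0.42 without wt_Mx_pos_823, and with 1 Cre-negative library left that library was assumed to vary as the other groups do. Reads that did not align uniquely, the class that reads shared with Tdg-ps fall into, made up 28.3% of the reads of cKI_Cre_neg_780, the highest of the 9. In cKI_Cre_neg_819 they made up 24.7%, inside the 21.6% to 26.4% of the other 7. Ly6a followed the same order of groups, at 27.2 and 30.6 CPM in the Cre-negative libraries, 32.7 to 39.9 CPM in the mutant and 35.4 to 44.2 CPM in wild type. The 14 S phase genes summed to 3125 and 4423 CPM in the 2 Cre-negative libraries, inside the wild-type range of 3079 to 5381 CPM. The part of these in the Tdg difference was not tested. Glt8d2, on the opposite strand, overlaps 6.83% of the exon bases of Tdg and had 156 to 305 counts per library; how strand was used in counting is not given in the sources used here.

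Mbd4 (ENSMUSG00000030322, chromosome 6, 115840697 to 115853371, minus strand) was the steadiest member, with a coefficient of variation of 9.53% over the 9 libraries, where the median gene had 19.1%. It stood at 53.2, 57.8 and 52.1 CPM in the wild-type libraries and at 45.0, 49.1, 48.5 and 50.04 CPM in the mutant libraries. All mutant values were below all wild-type values, by a narrow margin. The Cre-negative libraries gave 50.9 and 61.3 CPM and also lay above the mutant. The log2 fold change was -0.17 (95% interval -0.40 to 0.05) for mutant minus wild type and -0.22 (-0.47 to 0.03) for mutant minus Cre-negative, with edgeR adjusted p of 0.998 and 0.912. The first kept its sign in all 18 alternatives, between -0.19 and -0.12. The second was -0.05 without cKI_Cre_neg_819. Per kilobase of exon, Tdg made up 34.0% to 36.2% of the sum of Tdg and Mbd4 in wild type, 34.3% to 38.7% in the mutant, and 29.6% and 26.5% in the Cre-negative libraries, as a description. Exons of the antisense gene Gm44206 cover 5.00% of the exon bases of Mbd4.

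**Figure D3:**
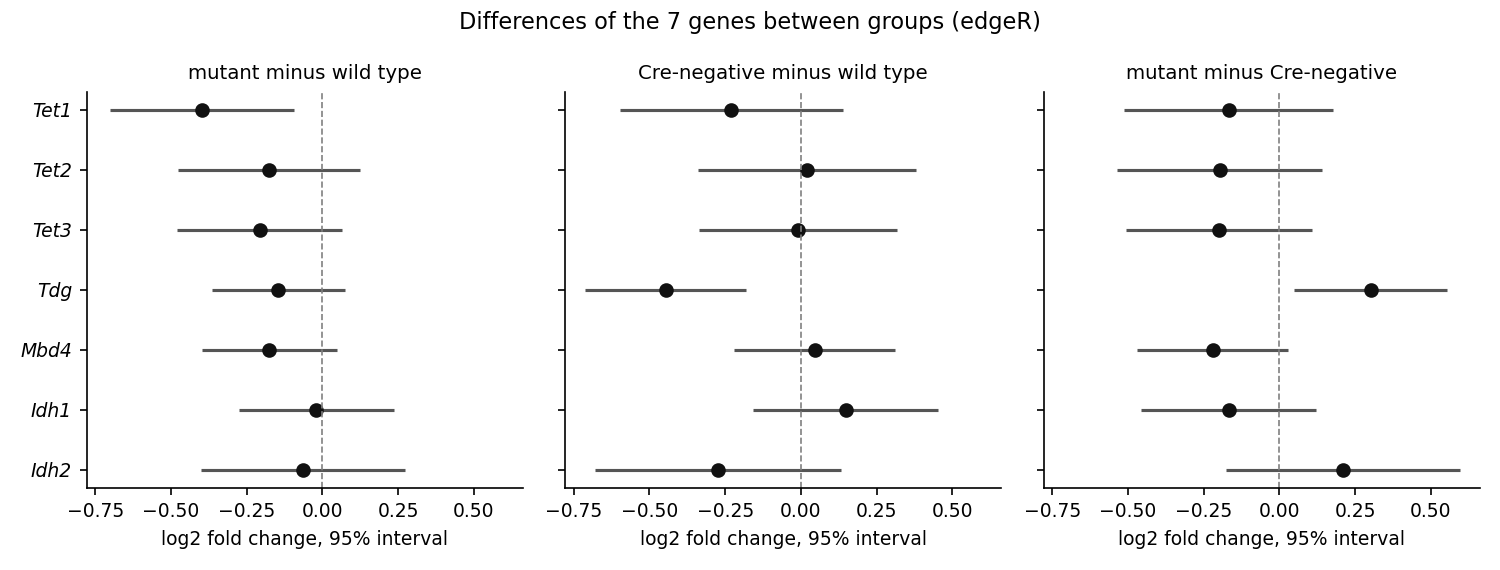
Log2 fold change of each gene in the 3 comparisons with its 95% interval from edgeR; the dashed line marks no difference. The intervals of Tet1 in mutant minus wild type and of Tdg in both comparisons with Cre-negative libraries lie off 0, and none of the 21 differences passed an adjusted p of 0.05.

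Neither isocitrate dehydrogenase separated any pair of groups, and both had their extreme in cKI_Cre_neg_819, Idh1 the highest and Idh2 the lowest of 9. Idh1 (ENSMUSG00000025950, chromosome 1, 65158616 to 65186500, minus strand) stood at 75.8, 70.2 and 59.2 CPM in the wild-type libraries. The mutant libraries gave 63.3, 70.0, 69.6 and 66.9 CPM, all inside the wild-type range. The Cre-negative libraries gave 67.5 and 84.0 CPM. Mutant and wild type differed by -0.02 on the log2 scale (95% interval -0.28 to 0.24). Cre-negative minus wild type was 0.15 (-0.16 to 0.45), and -0.03 without cKI_Cre_neg_819.

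Idh2 (ENSMUSG00000030541, chromosome 7, 80094846 to 80115392, minus strand) stood at 237, 353 and 312 CPM in the wild-type libraries. The mutant libraries held 330.4, 279.5, 267 and 272 CPM, again inside the wild-type range. The Cre-negative libraries held 281 and 216 CPM. The log2 difference was -0.06 for mutant minus wild type (95% interval -0.40 to 0.27), -0.28 for Cre-negative minus wild type (-0.68 to 0.13) and 0.21 for mutant minus Cre-negative (-0.18 to 0.60). The second was -0.51 without cKI_Cre_neg_780, -0.43 without wt_Mx_pos_820, -0.17 without wt_Mx_pos_823 and -0.11 without cKI_Cre_neg_819. The last was 0.46 without cKI_Cre_neg_780 and 0.06 without cKI_Cre_neg_819. Idh1 and Idh2 had an r of -0.75 over the 9 libraries in log2 CPM (adjusted exact permutation p = 0.134; rho = -0.55, adjusted exact permutation p = 0.364; r = -0.57 without the 2 libraries farthest in Idh1). Per kilobase of exon, Idh2 stood 4.43 ± 0.989 times as high as Idh1 (SD over 9 libraries), from 2.75 in cKI_Cre_neg_819 to 5.64 in wt_Mx_pos_825.

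Across the 9 libraries, 42 relations were computed after the data were seen: the 21 pairs of members, and each member against reads outside annotated exons, against the S phase list and against the erythroid list. Levels were log2 CPM, and p-values came from exact permutation tests over all 362880 pairings, two-sided, with Benjamini-Hochberg adjustment over the 42. Idh1 and the median of the erythroid list had a Pearson r of 0.88 (exact permutation p = 8.05e-04, adjusted p = 0.0338) and a Spearman rho of 0.77 (exact permutation p = 0.0214, adjusted p = 0.299). Without cKI_Mx_pos_829 and cKI_Cre_neg_819, the 2 farthest from the median of the erythroid list, r was 0.87, and after removal of group means it was 0.85. The Pearson relation thus passed and the rank relation did not. For Idh2 the same relation had the opposite sign (r = -0.77, rho = -0.72, adjusted exact permutation p = 0.102 and 0.352; r = -0.58 without those 2 libraries).

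The other 41 relations did not pass. The strongest pair of members was Tet2 with Idh2, at r = -0.81 and rho = -0.88 (exact permutation p = 0.00976 and 0.00308, adjusted p = 0.102 and 0.129), and r was -0.89 without the 2 libraries farthest in Tet2. The TET genes had positive r with each other, 0.73 for Tet1 with Tet2, 0.76 for Tet1 with Tet3 and 0.71 for Tet2 with Tet3, with adjusted exact permutation p of 0.150, 0.134 and 0.146. Their rho was 0.38, 0.53 and 0.52 (adjusted exact permutation p = 0.505, 0.364 and 0.378). Without wt_Mx_pos_820, the r of these pairs was 0.32, 0.34 and 0.40, and without the 2 libraries farthest from the median of the first gene it was 0.29, 0.24 and 0.62; the relations of Tet1 rested on those libraries. Tet2 was highest where reads outside annotated exons were most frequent (r = 0.81, rho = 0.82, adjusted exact permutation p = 0.102 and 0.226; r = 0.67 without wt_Mx_pos_820 and 0.75 without the 2 libraries farthest in those reads).

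**Figure D4:**
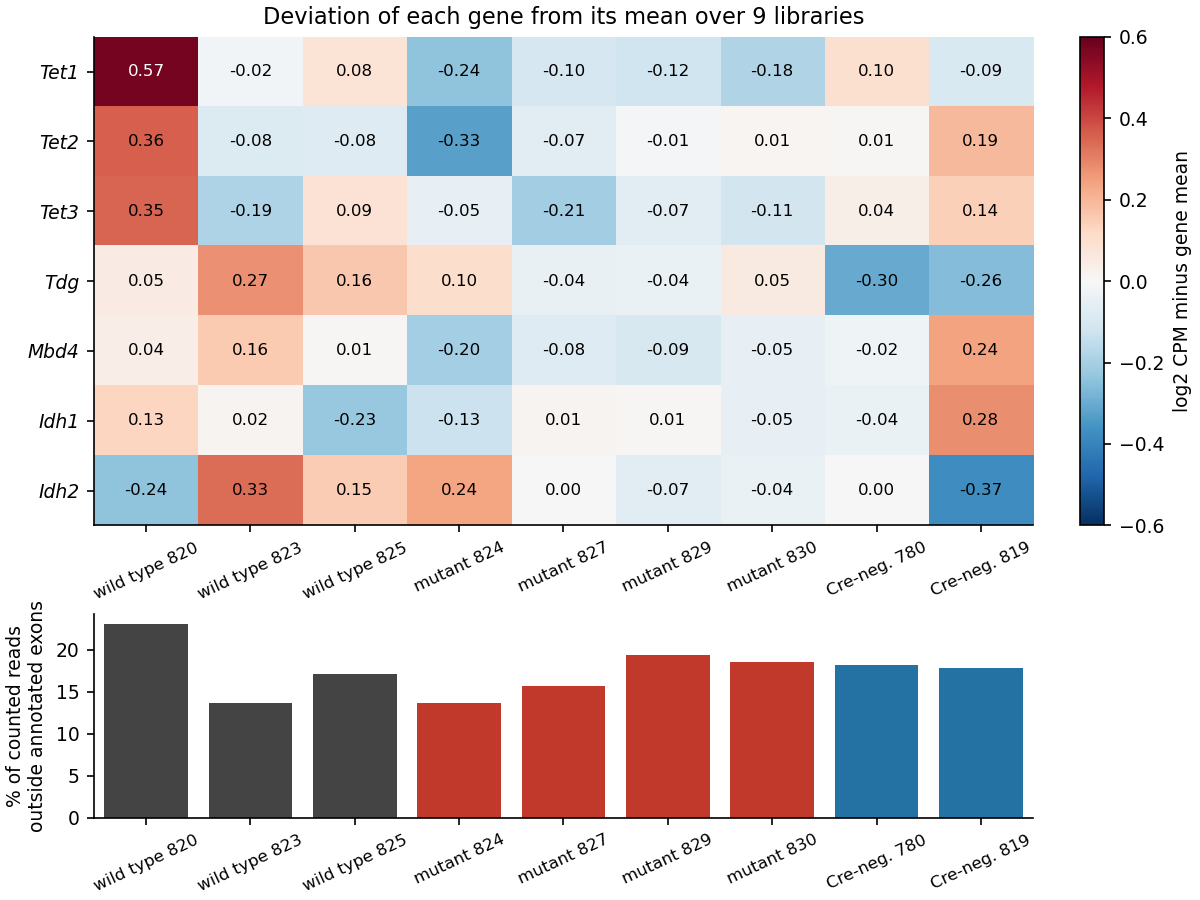
Top, log2 CPM of each gene minus its mean over the 9 libraries (colour and number); bottom, reads outside annotated exons as a percentage of all counted reads per library. wt_Mx_pos_820 has the highest bar (23.1%) and deviations of 0.57, 0.36 and 0.35 for Tet1, Tet2 and Tet3, and cKI_Cre_neg_819 is high for Idh1 (0.28) and low for Idh2 (-0.37).

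By likeness of pattern, the genes nearest to each member over the 9 libraries were taken from 9826 autosomal genes of at least 5 CPM, as a description. Nearest to Tet1 were Ssh2 (r = 0.99), Rfx3 (0.97) and Aff4 (0.95), to Tet2 Emsy (0.98), Washc4 (0.97) and Zbtb37 (0.97), and to Tet3 Ubr4 (0.96), Wdfy3 (0.95) and Ep300 (0.94). Tdg lay nearest to Gbx2 (0.97), Epop (0.96) and Ly6a (0.95), and Mbd4 to Ms4a6c (0.98), Cebpg (0.95) and Slf2 (0.95). Idh1 lay nearest to Itch (0.98), Pik3ca (0.96) and Eapp (0.96), and Idh2 to Marcksl1 (0.98), Esyt1 (0.98) and Dpp9 (0.98). Between 12 genes (Tdg) and 171 genes (Idh2) had an r over 0.9, and with 9 libraries shared by all genes such values are not rare.

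The rest of the pathway was read from 7 lists of 81 genes, of which 76 were tested. None passed an adjusted p of 0.05 in edgeR in any comparison. Unadjusted, 2 (2.63%) had a p under 0.05 in mutant minus wild type, 4 (5.26%) in Cre-negative minus wild type and 5 (6.58%) in mutant minus Cre-negative, near the 3.17%, 5.23% and 5.26% of all genes. Their medians were -0.06, -0.02 and -0.01 on the log2 scale, against -0.02, 0.02 and -0.03 over all genes. The others had too few counts to be tested.

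Of the partners and regulators of TET enzymes, which include Ogt and the vitamin C carrier Slc23a2, 0 of 9 tested had an unadjusted p under 0.05 in any comparison, with medians of -0.06, 0.03 and 0.002 for mutant minus wild type, Cre-negative minus wild type and mutant minus Cre-negative. The 13 base excision repair genes that act after a glycosylase, such as Apex1, Xrcc1 and Parp1, likewise had 0 (medians -0.06, -0.03 and 0.05). So did the 9 other DNA glycosylases, among them Neil1, Ung and Ogg1 (medians 0.07, -0.04 and 0.16). Of the 23 genes of 2-oxoglutarate and 2-hydroxyglutarate metabolism, 21 had negative log2 fold changes in mutant minus wild type, where 54.3% of all genes did. Their median was -0.09, and 0 of 23 had an unadjusted p under 0.05; in Cre-negative minus wild type 11 of 23 were negative (46.8% of all genes) and in mutant minus Cre-negative 18 of 23 (55.8% of all genes).

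Of the 9 genes of DNA methylation itself and its upkeep, 8 were negative in mutant minus wild type (median -0.10), 8 in Cre-negative minus wild type (-0.28) and 3 in mutant minus Cre-negative (0.15), where 54.3%, 46.8% and 55.8% of all genes were. The 6 tested deaminase and Gadd45 genes had medians of 0.07, 0.23 and -0.04 in the same order, and the 7 readers of methylated DNA 0.04, 0.02 and 0.02.

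The listed genes with an unadjusted p under 0.05 lay in 3 lists. Dnmt3a, the gene targeted in this model, stood at 148 to 173 CPM in wild type, 153 to 171 CPM among mutant libraries, and 118 and 93.5 CPM without Cre. Like Tdg, it was thus lowest in both Cre-negative libraries, a pattern without overlap that 11.4% of genes showed against wild type and 12.4% against the mutant in either direction. Its log2 fold change was -0.59 for Cre-negative minus wild type (SE 0.13, edgeR adjusted p = 0.594) and 0.60 for mutant minus Cre-negative (SE 0.12, adjusted p = 0.8005). Dnmt3l, a cofactor of Dnmt3a, lay under 0.4 CPM on average in each group, and its differences from Cre-negative libraries had unadjusted edgeR p of 0.0254 and 0.0220.

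Gadd45a, a stress gene proposed to recruit demethylation factors, stood at 16.8 CPM in cKI_Cre_neg_819 and between 6.68 and 9.45 CPM in the other 8, so its differences rested on 1 library. Cre-negative minus wild type was 0.73 on the log2 scale and mutant minus Cre-negative -0.70, with adjusted p of 0.809 and 0.822 in edgeR's quasi-likelihood test. Mbd2, a reader of methylated DNA, likewise stood at 145 CPM in cKI_Cre_neg_819 and between 80.5 and 94.9 CPM elsewhere. Zbtb33, which encodes the methyl-CpG reader Kaiso, ran from 29.4 to 49.2 CPM in wild type, was highest in wt_Mx_pos_820, and ran from 23.6 to 27.7 CPM in the mutant. It stood at 31.5 and 42.0 CPM in the Cre-negative libraries. The mutant minus wild type log2 fold change of Zbtb33 was -0.56 (SE 0.17, unadjusted p = 0.00881, edgeR adjusted p = 0.998). This gene lies on chromosome X, and each group mixed libraries with and without Y-linked transcripts. Gadd45g lay between 0.652 and 0.814 CPM in wild type, between 0.879 and 1.54 CPM in the mutant and at 1.39 and 1.19 CPM in Cre-negative libraries. Its log2 differences from wild type were 0.74 and 0.82, with adjusted p of 0.998 and 0.848 in edgeR's quasi-likelihood test.

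**Figure D5:**
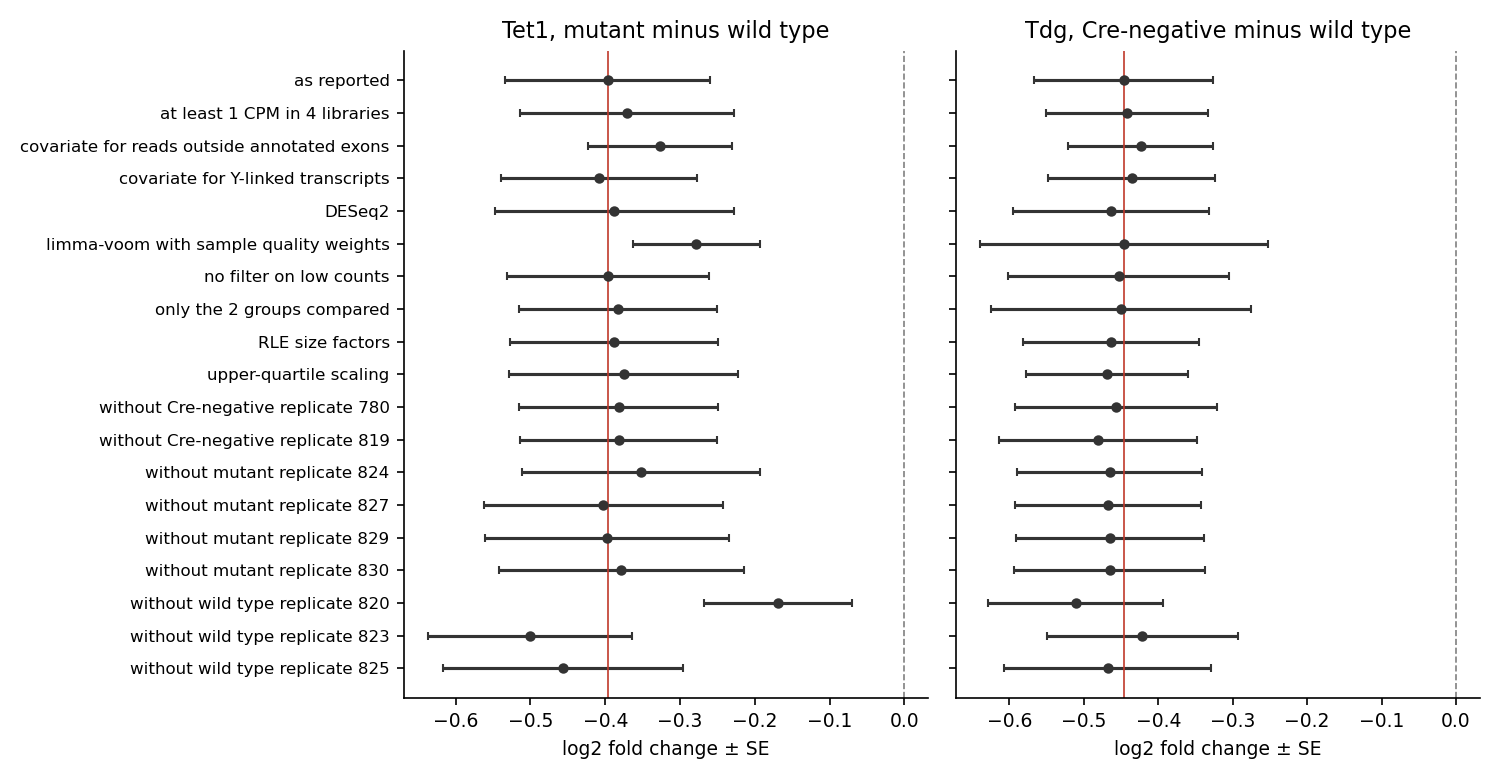
Log2 fold change and SE of Tet1 in mutant minus wild type (left) and of Tdg in Cre-negative minus wild type (right) as reported and under each alternative; red lines mark the reported values and dashed lines 0. Tet1 moves from -0.40 to -0.17 without wt_Mx_pos_820, whereas Tdg stays between -0.51 and -0.42.

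No marker gene of other cells was called in any comparison. In mutant minus wild type, where 54.3% of all genes had negative log2 fold changes and 3.17% an unadjusted p under 0.05, all 10 mature neutrophil genes were positive (median 1.56, 2 at an unadjusted p under 0.05). Their summed levels overlapped, from 53.5 to 168 CPM in wild type, 136 to 427 CPM in the mutant and 40.8 to 334 CPM in Cre-negative libraries. Of 8 granulocyte-monocyte progenitor genes, 7 were positive (median 0.32, 1 at an unadjusted p under 0.05). Wild-type sums of these genes, 1221 to 1592 CPM, did not overlap with the mutant sums of 1645 to 1871 CPM. Of all single genes tested, 8.32% showed such a separation in either direction. Cre-negative sums were 1537 to 2179 CPM. In Cre-negative minus wild type, all 10 neutrophil genes (median 1.32) and all 8 progenitor genes (median 0.36) were also positive. Of all genes, 46.8% were negative in that comparison. In mutant minus Cre-negative, 9 of 10 (median 0.49) and 2 of 8 (median -0.09) were positive, where 55.8% of all genes were negative.

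All 10 B cell genes were positive in mutant minus wild type (median 0.84, 3 at an unadjusted p under 0.05). Of all genes, 54.3% were negative there and 3.17% had an unadjusted p under 0.05. B cell sums were 72.5 and 72.2 CPM in cKI_Mx_pos_829 and cKI_Mx_pos_830, and 57.1 and 50.6 CPM in cKI_Mx_pos_824 and cKI_Mx_pos_827. By group, sums were 38.6 to 54.5 CPM in wild type, 50.6 to 72.5 CPM in the mutant and 40.8 to 70.6 CPM without Cre. Of 10 macrophage and dendritic cell genes, 8 were positive (median 0.52, 2 at an unadjusted p under 0.05), with sums of 245 to 286, 272 to 291 and 239 to 324 CPM in the same order. The 9 tested T and NK cell genes included 7 positive ones (median 0.32, 1 at an unadjusted p under 0.05), with sums of 109 to 145, 107 to 146 and 92.8 to 144 CPM over the 10 listed. In Cre-negative minus wild type, 10 of 10 B cell, 8 of 10 macrophage and dendritic cell and 7 of 9 T and NK cell genes were positive. Their medians were 0.65, 0.75 and 0.41, and 46.8% of all genes were negative there. In mutant minus Cre-negative, 7, 3 and 4 of them were positive (medians 0.03, -0.13 and -0.09), where 55.8% of all genes were negative.

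Of the 14 erythroid genes, 8 had an unadjusted p under 0.05 and were higher in Cre-negative minus wild type (median 1.19), and 9 were lower in mutant minus Cre-negative (median -1.29), against 5.23% and 5.26% of all genes in either direction. Their sum was 1110.04 CPM in cKI_Cre_neg_780 and 3964 CPM in cKI_Cre_neg_819. The 8 mast cell and basophil genes summed to 269.5 CPM in cKI_Cre_neg_819 and to at most 125 CPM elsewhere, and the 12 LSK and stem cell genes ran from 2408 CPM in that library to 3535 CPM in cKI_Cre_neg_780. The 14 S phase and the 14 G2 and M phase genes all had negative values in mutant minus wild type (medians -0.16 and -0.15). Of all genes, 54.3% were negative there. In each of these lists, 0 genes had an unadjusted p under 0.05. None of these marker genes was at 0 in all libraries, and their part in the differences of the 7 members was not tested.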

How the data were processed

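Stranded total RNA libraries depleted of ribosomal RNA came from sorted LSK cells, per the labels' protocols. The submitters' processing notes name mm10 (GRCm38) and the tools STAR, HTSeq (0.5.3p3) and DESeq2, without other versions, an annotation or a strand setting, so values of overlapping antisense pairs are uncertain. The authors deposited raw counts for 39179 Ensembl genes, used here. Another 5 table entries name no gene; they held 40.5% to 47.3% of reads and entered neither library sizes nor tests. A second deposited table, the same counts divided by 1 factor per library, was not used. GENCODE M21 gave symbols for 37693 identifiers.

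Genes passing filterByExpr were scaled by TMM and tested in edgeR 4.0.16 with the quasi-likelihood F test over all 9 libraries, with 1 mean per group and Benjamini-Hochberg adjustment over 18576 genes (threshold 0.05). The SE of a log2 fold change is its size divided by the root of F. The fit was tested on simulated data. Any 2 libraries of a group differed beyond sampling noise (lowest chi-square per degree of freedom 13.4). Alternatives used RLE and upper-quartile scaling, DESeq2 1.42.0, limma 3.58.1 (R 4.3.3), other filters, fewer groups, 2 covariates and each library left out.

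Members and lists were chosen with earlier results of these data known. Named genes were the members, up to 3 genes per list and comparison with an unadjusted p under 0.05, and the 3 autosomal genes nearest to each member by Pearson r of log2 CPM (prior count 2), without clone names; Kit, Ly6a and examples of lists were added.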

Additional observations from a re-analysis of the deposited data

How the results depend on the processing

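The 21 log2 fold changes of the 7 genes were recomputed under 18 alternatives each (378 values): 352 kept their sign and 26 did not, and none passed an adjusted p of 0.05. Reversed values belonged to 8 differences of at most 0.18 in size, and the cause was not tested. Idh1 in mutant minus wild type was 0.0088 with at least 1 CPM in 4 libraries, 0.12 with limma-voom and sample quality weights and 0.0067 with upper-quartile scaling, and lay between -0.099 and 0.085 when single libraries were left out. Idh2 in the same comparison was 0.0026 with the covariate for Y-linked transcripts and ranged from -0.19 to 0.072 over left-out libraries. Tet2 in Cre-negative minus wild type was -0.011 with the added covariate for reads outside annotated exons, -0.013 with that for Y-linked transcripts and -0.011 with upper-quartile scaling. Tet3 in that comparison was 0.014 with limma-voom. Over left-out libraries, Cre-negative minus wild type ranged from -0.092 to 0.17 for Tet2, -0.16 to 0.12 for Tet3, -0.11 to 0.14 for Mbd4 and -0.033 to 0.27 for Idh1. Over the same fits Idh1 in mutant minus Cre-negative ranged from -0.27 to 0.030 and Tet2 in mutant minus wild type from -0.24 to 0.011.

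Counts of all genes called were 0 in the 3 comparisons with edgeR, with 589, 972 and 978 genes at an unadjusted p under 0.05. DESeq2 called 38, 56 and 27 for mutant minus wild type, Cre-negative minus wild type and mutant minus Cre-negative, and limma-voom called 13 in the first and 0 in the others; none of the 7 members was among them. Over left-out libraries edgeR called 0 to 0, 0 to 650 (62 without cKI_Cre_neg_819) and 0 to 1835 (9 without it), the highest each without cKI_Cre_neg_780 and resting on 1 Cre-negative library. By the longest transcript, Tet1, Tet2 and Tet3 made up 29.9%, 38.5% and 31.6% of their sum. No paired analysis was run because the labels name no pairing and no batch.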
